A study of Mus musculus with 19 samples.

Results

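Thymocytes sorted for surface CD5 and TCRβ were compared with the whole, unsorted thymus of wild-type mice. Lanes were taken by their labels as B6 wild-type and as sorted CD5+TCRb+ or not sorted, and cells were kept with at most 15 percent mitochondrial UMIs and at least 200 genes, which gave 32446 cells from 7 lanes and 5 mice out of 79569 cells from 19 lanes and 17 mice in the series. The sorted group held 10279 of these cells from 3 mice, and the unsorted group held 22167 cells from 2 mice with 2 lanes each. Each sorted lane was counted as 1 mouse because its label gives 1 sample, although the lane of sorted replicate 1 also held UMIs of 3 hashtag antibodies, and whether it holds cells of more than 1 mouse was not tested. All 5 mice were untreated C57BL/6 females of 4 to 8 weeks with unmanipulated T cell receptor and MHC loci. RNA and 111 surface proteins were counted in the same cells by CITE-seq, in which each antibody carries an oligonucleotide tag that is sequenced with the cell's transcripts. Sorted replicate 1 belonged to experiment ZRS06 and sorted replicates 2 and 3 to ZRS07, while unsorted replicates 4 and 5 belonged to ZRS08. The sorted libraries were prepared at Berkeley and the unsorted libraries at BioLegend, so that the sort, the site and the experiment changed together and cannot be told apart in any comparison of the wild-type mice.

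In the thymus, CD4-CD8- precursors rearrange the TCRβ locus, pass the pre-TCR checkpoint and become CD4+CD8+ double-positive cells, which rearrange TCRα under the RAG recombinase. A double-positive cell whose receptor engages self-peptide on MHC raises CD5, an inhibitory receptor that tracks the strength of the received signal, together with CD69 and surface TCRβ. Cells that pass this test mature into CD4+ or CD8+ single-positive cells, gain egress and homing receptors and leave the thymus. A gate on CD5 and TCRβ is therefore used to enrich thymocytes that have received a signal through the mature receptor. Sorted cells in the study were live, single and positive for both proteins, and their CD5 and TCRβ tags had been hybridised to fluorescent oligonucleotides for the cytometer, a step whose effect on the counts of these tags was not tested.

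Doublet calling removed 1490 cells, 4.59 percent, and left 2999, 4549 and 2421 sorted cells and 11736 and 9251 unsorted cells. Their RNA sums ran from 13767706 to 58642504 UMIs per mouse. Unsorted replicate 5 stood apart from the rest before any comparison was made. Its median was 1516 UMIs per cell, against 3018 in unsorted replicate 4 and 4060 to 5045 in the sorted mice, and its lanes belonged to a second set within ZRS08. Spearman's correlation of gene levels across 5944 genes, which are not independent replicates, was 0.96 to 0.969 among the sorted mice, 0.864 to 0.876 between sorted mice and unsorted replicate 4, and 0.845 between the unsorted mice, but 0.699 to 0.71 between sorted mice and unsorted replicate 5. Calls that changed without that mouse are therefore given both ways, as are fold changes that moved by more than 1.5 times when any 1 mouse was left out. Pairs of the 7 lanes shared 2 to 16 cell barcodes, at most 0.353 percent of the smaller lane. P-values over the 5 mice measure the spread between the mice of each group. Where unsorted replicate 4 or 5 was left out, the unsorted group was 1 mouse and had no spread. P-values, calls and counts of those fits rest on the spread of the sorted mice and are no test between replicated groups.

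The sort labels were first checked against the antibody counts. A cell was called positive for CD5 above 469 and for TCRβ above 91.1 antibody UMIs per 10000 panel UMIs, with thresholds set on the 2 unsorted mice. Of the sorted cells, 94.1, 94.4 and 93.0 percent were CD5 positive, against 33.0 and 37.6 percent of the unsorted cells. The share positive for TCRβ was 28.6, 33.3 and 48.6 percent in the sorted mice and 11.5 and 14.1 percent in the unsorted mice. Both shares were higher in every sorted mouse than in either unsorted mouse, and these proteins defined the sort, so the difference is a check and not a result. The median TCRβ level was 39.9, 54.7 and 87.2 per 10000 in the sorted mice and 14.7 and 16.7 per 10000 in the unsorted mice, so more sorted cells lay below than above the TCRβ threshold. Cells positive for both by this threshold made up 28.1, 32.0 and 47.2 percent of the sorted mice and 10.8 and 12.8 percent of the unsorted mice.

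**Figure D1:**
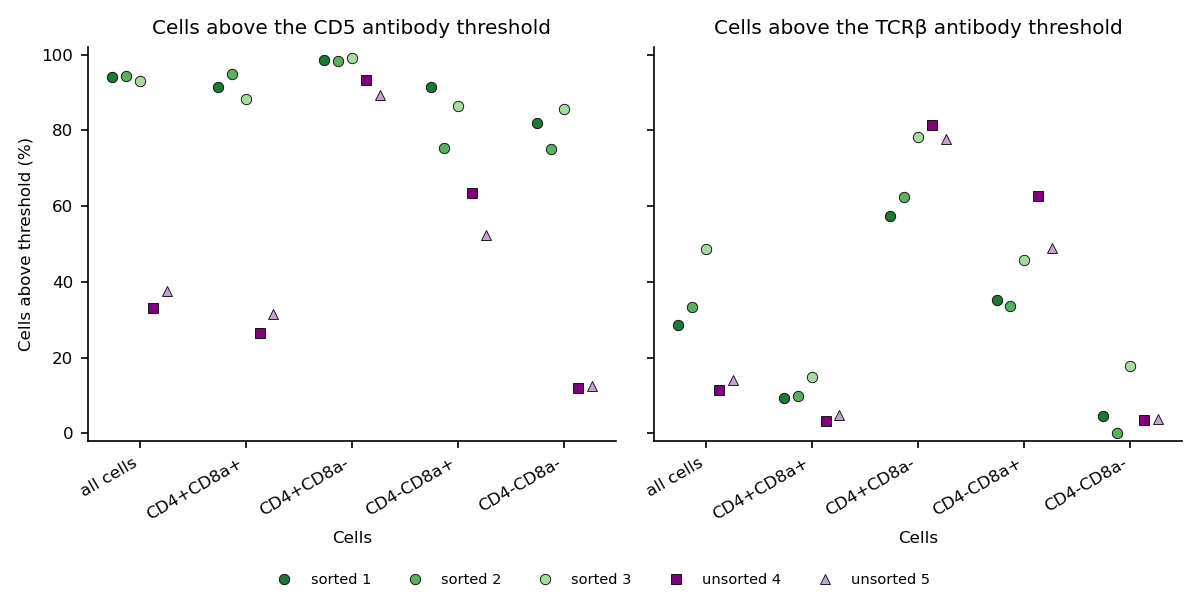
Percent of cells above the CD5 (left) and TCRβ (right) antibody thresholds, over all cells and within each CD4 and CD8a gate of 5 wild-type mice, with 1 point per mouse. Over all cells the sorted mice lie at 93.0 to 94.4 percent for CD5 and at 28.6 to 48.6 percent for TCRβ, above both unsorted mice.

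Sorted thymocytes held a smaller share of double-positive cells and a larger share of CD4+CD8a- cells. Gates were drawn at 61.9 CD4 and 94.3 CD8a antibody UMIs per 10000 panel UMIs, at the low point between the peaks of all 5 mice. CD4+CD8a+ cells were 57.0, 49.4 and 39.2 percent of the sorted mice (48.5 ± 8.9, mean ± SD, n = 3) and 86.9 and 82.7 percent of the unsorted mice (84.8 ± 2.9, n = 2). CD4+CD8a- cells were 37.3, 40.7 and 46.8 percent of the sorted mice (41.6 ± 4.8) and 8.86 and 10.3 percent of the unsorted mice (9.59 ± 1.03), a mean share 4.33-fold higher after the sort. For both gates the mice of the 2 groups did not overlap.

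CD4-CD8a+ cells were 5.04, 8.99 and 12.9 percent of the sorted mice and 2.30 and 3.79 percent of the unsorted mice, with group means of 8.97 ± 3.93 and 3.05 ± 1.06 percent. The CD4-CD8a- gate, which holds the precursors together with innate-like and γδ T cells, took 0.734, 0.967 and 1.16 percent of sorted and 1.94 and 3.15 percent of unsorted cells. These groups did not overlap either, but the spread among the sorted mice was wide for the CD4-CD8a+ gate. With 3 mice against 2, a two-sided exact permutation test has 10 arrangements and cannot go below p = 0.1, so no share could pass 0.05. The exact permutation p was 0.1 for the CD4+CD8a+, CD4+CD8a- and CD4-CD8a- gates and 0.2 for the CD4-CD8a+ gate (0.133, 0.133, 0.133 and 0.2 after Benjamini-Hochberg adjustment over the 4 gates).

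The ratio of CD4+CD8a- to CD4-CD8a+ cells was 7.40, 4.52 and 3.63 in the sorted mice and 3.85 and 2.72 in the unsorted mice, and these ranges overlapped. Among cells above both the CD5 and the TCRβ threshold, the CD4+CD8a- share was 75.7, 77.9 and 77.0 percent in the sorted mice and 65.4 and 61.1 percent in the unsorted mice. Double-positive cells made up 18.7, 14.9 and 11.8 percent of this subset in the sorted mice and 23.8 and 27.3 percent in the unsorted mice. The mice of the 2 groups did not overlap for either share.

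**Figure D2:**
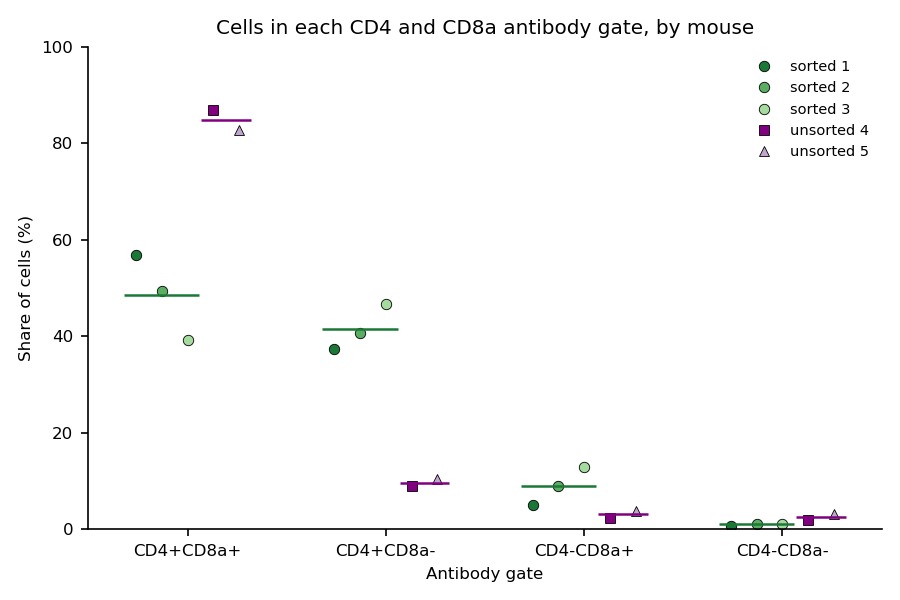
Percent of cells in each CD4 and CD8a antibody gate for 5 wild-type mice, with 1 point per mouse and lines at the group means. Sorted mice lie at 39.2 to 57.0 percent CD4+CD8a+ cells and unsorted mice at 82.7 and 86.9 percent.

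For RNA, the UMIs of each mouse were summed over its cells and compared with edgeR's quasi-likelihood test, with levels in CPM, the UMIs of a gene per 1000000 UMIs of the mouse, and calls at a Benjamini-Hochberg adjusted p of 0.05. In sums over all cells, a gene can be lower because fewer cells of a type were present or because each cell held less of its RNA, and these cannot be told apart. Over all cells, 1823 of 12595 genes tested, 14.5 percent, differed between sorted and unsorted mice, 816 higher (6.48 percent) and 1007 lower (8.00 percent) after the sort. The mice of the 2 groups did not overlap for 54.6 percent of genes. Of the calls, 43 of the 816 higher genes passed the filter on low counts in the sorted mice only. In the same way, 148 of the 1007 lower genes passed it in the unsorted mice only. Scaling by library size instead gave 618 higher and 1814 lower, with the median over all genes at -0.17 on the log2 scale. Without unsorted replicate 5 there were 1573 calls, of which 1208 were among the 1823. Without sorted replicate 1 there were 415, and without sorted replicate 2 or 3 there were 0 by edgeR, although 3008 and 3139 genes had an unadjusted p under 0.05. Without unsorted replicate 4 the count was 5903. Genes were grouped by 24 lists of thymocyte stages, pathways and other cell types with 245 different genes, of which 232 passed the filter on low counts over all cells.

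Genes of the recombination and preselection stage were lower in sorted thymocytes. Of 15 tested, 11 were lower and 0 higher, with a median log2 fold change of -1.28 against -0.0039 over all genes tested. Without unsorted replicate 5, 12 of 15 were lower. Rag1, which encodes a subunit of the recombinase, stood at 154, 99.4 and 107 in sorted against 921 and 1536 CPM in unsorted mice (log2 fold change -3.35 ± 0.33 SE, adjusted p = 0.00765). Arpp21, an RNA-binding protein abundant in resting double-positive cells, was at 222, 152 and 168 in sorted against 972 and 611 CPM in unsorted mice (log2 fold change -2.13 ± 0.29 SE, adjusted p = 0.00875). The sorted mice lay below both unsorted mice for both genes. Satb1, a chromatin organiser of the same stage, was at 1984, 1934 and 1314 in sorted against 1878 and 1599 CPM in unsorted mice and did not pass the test (log2 fold change 0.00 ± 0.29 SE, adjusted p = 0.992), and Cd24a, a surface antigen lost on maturation, was at 126, 96.9 and 68.8 in sorted against 128 and 251 CPM in unsorted mice (log2 fold change -0.96 ± 0.35 SE, adjusted p = 0.0987).

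Genes of the pre-TCR checkpoint and of Notch signalling, the pathway that commits early precursors to the T lineage, were also lower. Of 11 tested, 7 were lower and 0 higher, with a median of -1.71 (without unsorted replicate 5, 6 lower and 1 higher). The tested genes had to reach 0.449 CPM in at least 2 mice, and 1 of the 7, Erg, did so in the unsorted mice only and therefore had to differ. Ptcra, which encodes the pre-TCRα chain, was at 22.6, 14.2 and 25.4 in sorted against 75.5 and 59.8 CPM in unsorted mice (log2 fold change -1.71 ± 0.27 SE, adjusted p = 0.0116). Il2ra, which encodes CD25 and marks early precursors and regulatory T cells, was at 6.29, 7.96 and 8.80 in sorted against 22.8 and 63.1 CPM in unsorted mice (log2 fold change -2.48 ± 0.40 SE, adjusted p = 0.0120, and -1.58 without unsorted replicate 5). Notch3 was at 2.91, 1.72 and 2.64 in sorted against 12.2 and 25.0 CPM in unsorted mice (log2 fold change -2.94 ± 0.37 SE, adjusted p = 0.00849, and -2.34 without unsorted replicate 5). No sorted mouse reached the level of an unsorted mouse for these genes. Erg, a factor of the earliest precursors, had 0 UMIs in the sorted mice. By a limit of 3 counts over the group this put Erg at least 29.5-fold lower, in a direction that the filter had fixed.

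Cell cycle genes gave 2 lower and 0 higher calls among 20 tested, a share near the 8.00 percent of all genes called lower, with a median of -0.41. The groups were apart for 7 of the 20, against 54.6 percent of all genes. The called genes were Mki67, a proliferation marker, at 167, 98.0 and 225 in sorted against 401 and 619 CPM in unsorted mice (log2 fold change -1.64 ± 0.37 SE, adjusted p = 0.0285) and Top2a, a topoisomerase of dividing cells, at 314, 193 and 472 in sorted against 618 and 1750 CPM in unsorted mice (log2 fold change -1.86 ± 0.50 SE, adjusted p = 0.0449). Neither call held without unsorted replicate 5 (Mki67 log2 fold change -1.30, adjusted p = 0.0588, and Top2a -0.93, adjusted p = 0.161), and the list then had 0 calls by edgeR.

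Genes that respond to TCR signalling were higher in sorted thymocytes, 8 of 19 tested with 0 lower, a median of 1.07 and 9 higher without unsorted replicate 5. Tnfrsf9, which encodes the costimulatory receptor 4-1BB, was at 42.5, 48.5 and 48.2 in sorted against 9.25 and 10.0 CPM in unsorted mice (log2 fold change 2.27 ± 0.20 SE, adjusted p = 0.00688). Itm2a, a membrane protein induced during positive selection, was at 996, 895 and 697 in sorted against 234 and 164 CPM in unsorted mice (log2 fold change 2.12 ± 0.30 SE, adjusted p = 0.00904). Egr2, a transcription factor downstream of the receptor, was at 30.6, 32.2 and 16.3 in sorted against 7.71 and 6.20 CPM in unsorted mice (log2 fold change 1.92 ± 0.33 SE, adjusted p = 0.0146). All 3 were higher in every sorted mouse. Cd5 RNA was at 366, 358 and 298 in sorted against 124 and 107 CPM in unsorted mice (log2 fold change 1.56 ± 0.24 SE, adjusted p = 0.0104), and since its protein was sorted on, its RNA is not independent of the gate. The early response genes Egr1 (log2 fold change 0.33 ± 0.26 SE, adjusted p = 0.391) and Nr4a1 (log2 fold change 0.97 ± 0.30 SE, adjusted p = 0.0676) did not pass, at 93.0, 88.4 and 64.6 in sorted against 53.0 and 78.0 CPM in unsorted mice for the former and 58.8, 75.2 and 49.5 in sorted against 22.8 and 39.9 CPM in unsorted mice for the latter. Without unsorted replicate 5, Nab2, a corepressor of Egr factors, lost its call (log2 fold change 2.02, then 1.64, adjusted p = 0.0534) and Nr4a1 gained one (log2 fold change 1.42, adjusted p = 0.0170).

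The immediate early and heat shock list, whose genes also respond to tissue handling, moved in the same comparison. Of 14 tested, 5 were higher and 0 lower, with a median of 0.93, and without unsorted replicate 5 there were 4 higher and 1 lower with a median of 0.23. Ier2, an immediate early gene, was at 144, 164 and 147 in sorted against 58.5 and 24.5 CPM in unsorted mice (log2 fold change 1.86 ± 0.37 SE, adjusted p = 0.0208, and 2.64 without unsorted replicate 4). The summed level of the list was 3282 to 3891 CPM in the sorted mice and 3786 and 1965 CPM in the unsorted mice, so that unsorted replicate 4 lay among the sorted mice. The part of this response in the change of the TCR response genes was not tested.

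Of the receptor chains themselves, 1 of 7 was called, a share near the 14.5 percent of all genes called. Trac, the TCRα constant region, was at 1132, 1013 and 951 in sorted against 450.4 and 454 CPM in unsorted mice (log2 fold change 1.19 ± 0.24 SE, adjusted p = 0.0223), with every sorted mouse above both unsorted mice. Trbc1, a TCRβ constant region that belongs to a pair of near-identical copies whose reads the counting could split, was at 2979, 2734 and 2218 in sorted against 2989 and 1506 CPM in unsorted mice, with overlapping groups (log2 fold change 0.23 ± 0.35 SE, adjusted p = 0.651, and 0.83 without unsorted replicate 4). Cd3d was at 1406, 1491 and 1382 in sorted against 1152 and 648 CPM in unsorted mice (log2 fold change 0.66 ± 0.31 SE, adjusted p = 0.165). Among 12 genes of proximal TCR signalling, 3 were higher, led by Cd2, an adhesion receptor, at 702, 785 and 703 in sorted against 199.9 and 122 CPM in unsorted mice (log2 fold change 2.18 ± 0.30 SE, adjusted p = 0.00875). The kinase genes Lck and Zap70 did not pass (log2 fold change -0.44 ± 0.26 SE, adjusted p = 0.246) and (log2 fold change 0.69 ± 0.21 SE, adjusted p = 0.0671).

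Genes of both single-positive lineages were higher. In the CD4 lineage list, 5 of 7 were higher and 1 lower, with a median of 1.38. Zbtb7b, which encodes the CD4-lineage factor ThPOK, was at 30.6, 32.8 and 27.9 in sorted against 10.3 and 13.1 CPM in unsorted mice (log2 fold change 1.38 ± 0.21 SE, adjusted p = 0.0103). Cd40lg, a helper ligand, was at 43.9, 52.7 and 47.4 in sorted against 6.59 and 13.5 CPM in unsorted mice (log2 fold change 2.27 ± 0.33 SE, adjusted p = 0.00944, and 2.86 without unsorted replicate 5). The lower gene was Cd4 itself, at 164, 169.9 and 145 in sorted against 288 and 281 CPM in unsorted mice (log2 fold change -0.83 ± 0.21 SE, adjusted p = 0.0371). Thus the helper genes were above and the coreceptor RNA below the unsorted level in every sorted mouse, while Gata3, another factor of the lineage, overlapped at 146, 136 and 101 in sorted against 79.0 and 156 CPM in unsorted mice (log2 fold change 0.12 ± 0.32 SE, adjusted p = 0.802).

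In the CD8 lineage list, 8 of 10 were higher and 0 lower, with a median of 1.80 (7 higher and 1 lower without unsorted replicate 5). Ctsw, a protease of cytotoxic cells, was at 106, 146 and 153 in sorted against 33.2 and 26.0 CPM in unsorted mice (log2 fold change 2.19 ± 0.26 SE, adjusted p = 0.00849). Nkg7, a granule membrane protein, was at 73.2, 116 and 133 in sorted against 30.9 and 21.7 CPM in unsorted mice (log2 fold change 2.03 ± 0.32 SE, adjusted p = 0.0116). Both were higher in all 3 sorted mice. Gzma, a granzyme, did not pass over all 5 mice (log2 fold change -0.77 ± 0.32 SE, adjusted p = 0.126) and was the gene called lower without unsorted replicate 5 (log2 fold change -1.15, adjusted p = 0.0291).

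Maturation and egress genes were higher in 11 of 17, with 0 lower and a median of 1.40. Klf2, the factor that opens the egress programme, was at 315, 338 and 498 in sorted against 88.9 and 32.6 CPM in unsorted mice (log2 fold change 2.65 ± 0.47 SE, adjusted p = 0.0153, and 3.57 without unsorted replicate 4). Ms4a4b, a membrane protein of mature T cells, was at 554, 648 and 872 in sorted against 158 and 136 CPM in unsorted mice (log2 fold change 2.23 ± 0.29 SE, adjusted p = 0.00849). Ccr7, the receptor that guides positively selected cells to the medulla, was at 223, 218 and 280.2 in sorted against 48.8 and 74.3 CPM in unsorted mice (log2 fold change 1.97 ± 0.28 SE, adjusted p = 0.00904). Sorted replicate 3, which had the largest single-positive share, was the highest of the mice for all 3 genes. S1pr1, the egress receptor, was at 66.2, 91.2 and 131 in sorted against 23.8 and 49.0 CPM in unsorted mice and just missed the threshold (log2 fold change 1.40 ± 0.40 SE, adjusted p = 0.0519), whereas it passed without unsorted replicate 5 (log2 fold change 2.01, adjusted p = 0.0192).

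Further groups were also higher. MHC class I genes were higher in 6 of 7, with a median of 1.53, and H2-K1 was at 876, 1052 and 1065 in sorted against 286 and 231 CPM in unsorted mice (log2 fold change 1.95 ± 0.26 SE, adjusted p = 0.00851). The remaining member, B2m, the light chain of these molecules, was at 744, 938 and 1066 in sorted against 389 and 893 CPM in unsorted mice (log2 fold change 0.51 ± 0.38 SE, adjusted p = 0.353) and passed without unsorted replicate 5 (log2 fold change 1.23, adjusted p = 0.0228). Gimap GTPases, linked to lymphocyte survival, were higher in 4 of 8, and Gimap4 was at 255, 301 and 279.8 in sorted against 65.3 and 70.6 CPM in unsorted mice (log2 fold change 2.03 ± 0.23 SE, adjusted p = 0.00849). Interferon response genes were higher in 9 of 12 with a median of 1.43, and Irf7, a regulator of interferon genes, was at 77.3, 72.8 and 81.0 in sorted against 25.1 and 14.8 CPM in unsorted mice (log2 fold change 1.94 ± 0.27 SE, adjusted p = 0.00882).

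Survival genes gave 3 higher and 1 lower of 10. Bcl2, the survival factor of mature T cells, was at 292, 390.2 and 285 in sorted against 104 and 75.0 CPM in unsorted mice (log2 fold change 1.85 ± 0.28 SE, adjusted p = 0.0104). Bcl2l1, which encodes Bcl-xL of the double-positive stage, was lower, at 53.6, 32.7 and 34.3 in sorted against 83.0 and 95.4 CPM in unsorted mice (log2 fold change -1.15 ± 0.26 SE, adjusted p = 0.0295). Bcl2l11, the death mediator Bim, was at 57.9, 76.9 and 43.8 in sorted against 50.7 and 86.3 CPM in unsorted mice (log2 fold change -0.20 ± 0.31 SE, adjusted p = 0.665). The 3 members of this pathway thus took 3 courses, higher, lower and not called.

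Genes of regulatory T cells and agonist selection were higher in 7 of 9 and lower in 1, which was Il2ra. Foxp3, the defining factor of regulatory T cells, was at 5.98, 7.92 and 9.36 in sorted against 2.55 and 2.70 CPM in unsorted mice (log2 fold change 1.56 ± 0.29 SE, adjusted p = 0.0178). Tnfrsf4, which encodes OX40, was at 63.8, 71.9 and 96.1 in sorted against 22.03 and 12.0 CPM in unsorted mice (log2 fold change 2.18 ± 0.33 SE, adjusted p = 0.0105). In the negative selection list 3 of 6 were higher, and by library size scaling 1 of 6. Pdcd1, which encodes the inhibitory receptor PD-1, was at 27.8, 39.3 and 29.3 in sorted against 9.69 and 7.20 CPM in unsorted mice (log2 fold change 1.92 ± 0.25 SE, adjusted p = 0.00849), and Ikzf2, which encodes Helios, was at 296, 366 and 282 in sorted against 154 and 178 CPM in unsorted mice (log2 fold change 0.93 ± 0.24 SE, adjusted p = 0.0401). Innate-like genes were higher in 4 of 9, among them Cd160, an NK and T cell receptor, at 12.4, 14.6 and 26.2 in sorted against 5.54 and 4.66 CPM in unsorted mice (log2 fold change 1.79 ± 0.36 SE, adjusted p = 0.0214). Every sorted mouse lay above both unsorted mice for these 5 genes.

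Several marker lists of other cells moved with the sort. The summed level of the 5 erythroid genes tested, which passed the filter on low counts through the unsorted mice and of which 3 or 4 were at 0 in each sorted mouse, was 0.08 to 0.104 CPM in the sorted mice against 184 and 724.5 CPM in the unsorted mice. Hbb-bt, a globin, had 0 of 55470337 UMIs in the sorted mice and was at least 1438-fold lower. Myeloid and dendritic genes were lower in 8 of 13 (5 without unsorted replicate 5), of which Xcr1 passed the filter in the unsorted mice only, with summed levels of 189 to 326 CPM and 606 and 665 CPM, and none of these 13 genes was at 0 in any mouse. B cell genes were lower in 5 of 8, with summed levels of 171 to 264 CPM and 308 and 377 CPM, and Pax5, which passed the filter in the unsorted mice only, was at 0 in sorted replicates 2 and 3. The γδ T list had 2 of 7 lower, Tcrg-C1 and Tcrg-C2, which encode γ constant regions (-2.17 and -1.91 on the log2 scale, or -1.27 and -1.28 without unsorted replicate 5). Stromal genes gave 0 of 3 by edgeR, with summed levels of 76.2 to 87.7 CPM and 69.0 and 82.0 CPM. The part of these cells in the other differences over all cells was not tested.

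Because site and sort changed together, values from the unsorted TCR-transgenic mice of the series are given beside the wild-type differences. AND and F5 mice were unsorted in ZRS06 and ZRS07 and OT-I and OT-II mice were unsorted in ZRS08, with 2 mice of each genotype, and these strains also differ in receptor and in Rag1 genotype, so that genotype, site and experiment cannot be told apart in them. The log2 difference of AND and F5 from OT mice was -3.32 for the globin Hbb-bs. It was 1.56 for Klf2, 1.65 for Egr2, 1.38 for Cd2 and 0.92 for Itm2a, beside 2.65, 1.92, 2.18 and 2.12 between sorted and unsorted wild-type mice. It was -1.44 for Tnfrsf9, -1.44 for Zbtb7b, 0.08 for H2-K1 and 0.07 for Trac, against 2.27, 1.38, 1.95 and 1.19 in the wild-type mice. None of these AND and F5 differences from OT mice passed edgeR's test, with adjusted p from 0.101 for Egr2 to 0.937 for Trac. Other genes did pass it, among them Pgk1, which is given below. The part of site and experiment in the wild-type differences was not tested.

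**Figure D3:**
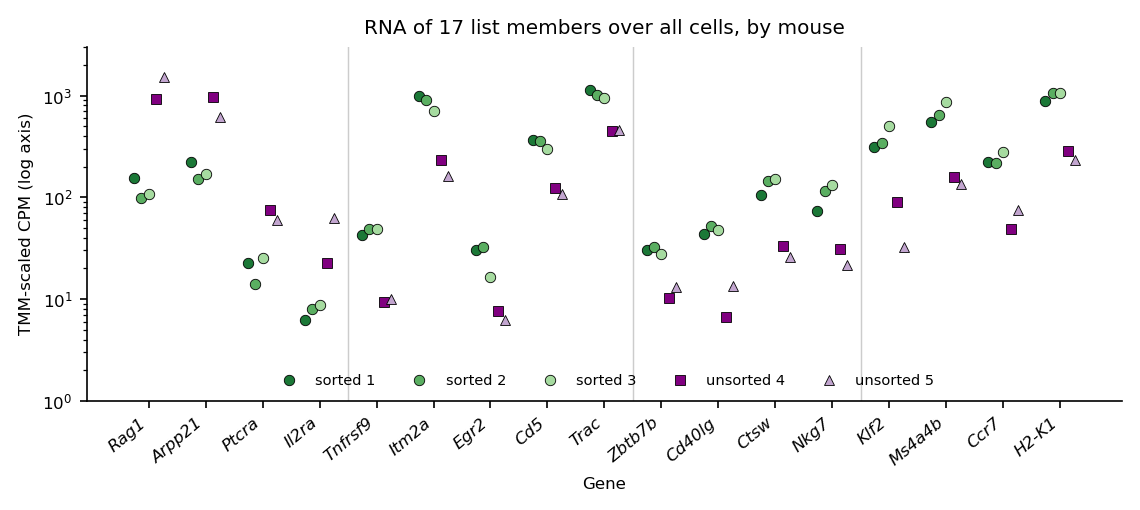
Level of 17 genes in sums over all cells of 5 wild-type mice, in CPM on a log axis, with 1 point per mouse. Rag1 lies at 99.4 to 154 CPM in the sorted mice and at 921 and 1536 CPM in the unsorted mice, and Tnfrsf9 at 42.5 to 48.5 against 9.25 and 10.0 CPM.

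The highest-ranked genes outside the lists included ones whose levels over all 17 mice did not overlap between ZRS06 and ZRS07 on one side and ZRS08 on the other. Igfbp4, a binding protein of insulin-like growth factors, was at 198, 233 and 366 in sorted against 31.4 and 24.8 CPM in unsorted mice (log2 fold change 3.24 ± 0.35 SE, adjusted p = 0.00834) and had a log2 difference of -0.96 between AND and F5 and OT mice. Lfng, a glycosyltransferase that modifies Notch, was at 60.9, 89.0 and 106 in sorted against 16.2 and 15.8 CPM in unsorted mice (log2 fold change 2.41 ± 0.29 SE, adjusted p = 0.00849). Gstp1, a glutathione transferase, was at 133, 134 and 207 in sorted against 35.7 and 4.62 CPM in unsorted mice (log2 fold change 2.96 ± 0.76 SE, adjusted p = 0.0406, and 5.11 without unsorted replicate 4 and 2.14 without unsorted replicate 5). Its level over all 17 mice was 110 to 211 CPM in the 11 mice of ZRS06 and ZRS07, 28.0 to 41.3 CPM in the 3 mice of the first and 4.90 to 7.76 CPM in the 3 mice of the second set of ZRS08 lanes. Pgk1, a glycolytic enzyme, likewise ranged from 56.6 to 151 CPM in the former and from 10.1 to 22.7 CPM in the 6 mice of ZRS08. Its log2 difference of AND and F5 from OT mice was 2.33 (adjusted p = 0.00576 by edgeR), beside 2.73 between sorted and unsorted wild-type mice. No genotype other than wild type was run in both sets, all 6 mice of ZRS08 were unsorted, and in wild type the sort changed with the set, so that genotype, sort and experiment cannot be told apart for these genes.

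Within the CD4+CD8a+ gate, 6 of 19 TCR response genes tested were called higher and 4 of 15 recombination genes were called lower in sorted than in unsorted double-positive cells, and no call was made for the other members of either list. The sums held 1708, 2246 and 949 sorted cells and 10198 and 7654 unsorted cells, of which 91.6, 94.9 and 88.2 percent against 26.5 and 31.4 percent were CD5 positive. Of 11433 genes tested, 314 differed, 2.75 percent, with 154 higher (1.35 percent) and 160 lower (1.40 percent). Library size scaling gave 155 higher and 277 lower. Levels did not overlap between the groups for 46.0 percent of genes. Of the calls, 14 of the 154 higher genes passed the filter in the sorted mice only and 13 of the 160 lower genes in the unsorted mice only. Without unsorted replicate 5 the count was 472, with 270 of the 314 among them, and without unsorted replicate 4 it was 4564. Leaving out sorted replicate 1, 2 or 3 left 3, 3 or 18 calls, and DESeq2 gave 1164.

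Of 19 TCR response genes tested in this gate, 6 were higher and 0 lower, with a median of 1.36 against 0.02 over all genes (10 higher without unsorted replicate 5). The immediate early and heat shock list had 3 of 14 higher and 0 lower in the same gate, with summed levels of 3250 to 3953 CPM in the sorted and 3899 and 2013 CPM in the unsorted mice. Tnfrsf9 was at 36.6, 30.1 and 41.8 in sorted against 4.36 and 6.03 CPM in unsorted mice (log2 fold change 2.81 ± 0.27 SE, adjusted p = 0.00828). Itm2a was at 792, 915 and 689.9 in sorted against 162 and 136 CPM in unsorted mice (log2 fold change 2.42 ± 0.28 SE, adjusted p = 0.0105). Egr2 was at 34.0, 48.2 and 18.9 in sorted against 6.96 and 5.66 CPM in unsorted mice (log2 fold change 2.42 ± 0.38 SE, adjusted p = 0.0240). All 3 sorted mice lay above both unsorted mice, and sorted replicate 2 was the highest for Itm2a and Egr2. The CD137 tag, the protein that Tnfrsf9 encodes, went the other way in this gate. It was at 527, 637 and 601 in sorted against 1525 and 1327 CPM of panel UMIs in unsorted mice (log2 fold change -1.28 ± 0.16 SE, adjusted p = 0.00377). Cd69, an early activation marker that retains cells in the thymus, missed the threshold at 136, 203 and 99.0 in sorted against 50.9 and 54.5 CPM in unsorted mice (log2 fold change 1.47 ± 0.32 SE, adjusted p = 0.0520). Egr1 was at 114, 125 and 72.8 in sorted against 53.4 and 84.4 CPM in unsorted mice, with overlapping groups (log2 fold change 0.60 ± 0.31 SE, adjusted p = 0.254).

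The negative selection list was higher in 3 of 6 within the gate, with a median of 1.36 (5 of 6 without unsorted replicate 5). Pdcd1 was at 29.2, 45.2 and 28.2 in sorted against 6.99 and 5.60 CPM in unsorted mice (log2 fold change 2.44 ± 0.29 SE, adjusted p = 0.0117). Ikzf2 was at 361, 491 and 318 in sorted against 145 and 151 CPM in unsorted mice (log2 fold change 1.40 ± 0.28 SE, adjusted p = 0.0415). Gadd45b, a stress-response gene, was at 23.1, 39.8 and 18.3 in sorted against 7.44 and 4.46 CPM in unsorted mice (log2 fold change 2.18 ± 0.39 SE, adjusted p = 0.0295). Sorted replicate 2 had the highest level of the 5 mice for each of these genes, and Bcl2l11, the death mediator, was at 74.2, 108 and 59.2 in sorted against 55.1 and 93.5 CPM in unsorted mice (log2 fold change 0.12 ± 0.33 SE, adjusted p = 0.822).

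Recombination and preselection genes were lower in 4 of 15 (6 without unsorted replicate 5), with a median of -0.84. Rag1 was at 289.9, 227 and 282 in sorted against 1240 and 2087 CPM in unsorted mice (log2 fold change -2.64 ± 0.31 SE, adjusted p = 0.0101), with no overlap between the groups. Rag2, the partner of Rag1 in the recombinase, was at 82.8, 41.6 and 57.9 in sorted against 124 and 148 CPM in unsorted mice (log2 fold change -1.16 ± 0.30 SE, adjusted p = 0.0714). Dntt, the terminal transferase that adds N nucleotides, was at 818, 558 and 778 in sorted against 1183 and 809.9 CPM in unsorted mice (log2 fold change -0.47 ± 0.30 SE, adjusted p = 0.326). The log2 change of Rag1 was thus smaller in this gate than over all cells, -2.64 and -3.35, although the difference between them was not tested.

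Single-positive lineage genes were less uniform in the gate. Nkg7 was at 35.2, 35.7 and 46.0 in sorted against 9.04 and 7.71 CPM in unsorted mice (log2 fold change 2.21 ± 0.24 SE, adjusted p = 0.00915) and Ctsw at 51.4, 57.7 and 59.8 in sorted against 12.0 and 13.4 CPM in unsorted mice (log2 fold change 2.15 ± 0.22 SE, adjusted p = 0.00828). These were the 2 of 8 CD8 lineage genes called, while Runx3, the factor that sets the CD8 fate, missed the threshold at 53.9, 68.6 and 61.6 in sorted against 18.8 and 31.8 CPM in unsorted mice (log2 fold change 1.28 ± 0.28 SE, adjusted p = 0.0516) and passed without unsorted replicate 5 (log2 fold change 1.70, adjusted p = 0.00781). In the CD4 lineage list Tox2 was higher and Cd4 lower among 6 tested (1.97 and -1.09 on the log2 scale), and Zbtb7b was at 4.29, 5.33 and 5.50 in sorted against 2.13 and 4.70 CPM in unsorted mice (log2 fold change 0.58 ± 0.41 SE, adjusted p = 0.379, and 1.22 without unsorted replicate 5).

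Maturation genes were higher in 4 of 17. Bcl2 was at 199, 286 and 171 in sorted against 63.4 and 49.8 CPM in unsorted mice (log2 fold change 1.95 ± 0.30 SE, adjusted p = 0.0232). Klf2 was at 48.5, 51.1 and 75.9 in sorted against 21.9 and 10.9 CPM in unsorted mice (log2 fold change 1.82 ± 0.35 SE, adjusted p = 0.0383, and 2.42 without unsorted replicate 4). Ccr7 missed the threshold at 58.5, 65.8 and 69.3 in sorted against 12.8 and 32.0 CPM in unsorted mice (log2 fold change 1.53 ± 0.37 SE, adjusted p = 0.0623) and passed without unsorted replicate 5 (log2 fold change 2.32, adjusted p = 0.00258). Among chemokine receptors and guidance genes, Ccr4, a receptor for medullary chemokines, was higher (log2 fold change 1.35 ± 0.28 SE, adjusted p = 0.0461) and Plxnd1, a semaphorin receptor, was lower (log2 fold change -1.61 ± 0.24 SE, adjusted p = 0.0201), at 39.4, 37.1 and 27.3 in sorted against 10.6 and 16.9 CPM in unsorted mice for the former and 34.9, 27.5 and 26.2 in sorted against 77.9 and 103 CPM in unsorted mice for the latter. Cell cycle genes gave 0 calls of 20 by edgeR with a median of 0.24, and Mki67 was at 269, 187 and 444 in sorted against 463 and 744 CPM in unsorted mice (log2 fold change -1.01 ± 0.38 SE, adjusted p = 0.147). The globin Hbb-bs, which double-positive cells do not make, was still read at 52.0 and 105 CPM in the unsorted mice and at 0, 0 and 0.22 CPM in the sorted mice.

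Genes of largest change in the gate also held Cbfa2t3, a transcriptional corepressor, at 20.4, 18.1 and 24.6 in sorted against 89.3 and 103 CPM in unsorted mice (log2 fold change -2.20 ± 0.23 SE, adjusted p = 0.00828). Spo11, a meiotic recombination gene read in double-positive cells, was at 22.6, 28.6 and 24.9 in sorted against 122 and 266 CPM in unsorted mice (log2 fold change -2.93 ± 0.34 SE, adjusted p = 0.0101, and -2.27 without unsorted replicate 5). Both were lower in all 3 sorted mice. Tsix, an antisense RNA of the X-inactivation locus whose reads cannot be told from those of its partner without strand, was lower (log2 fold change -3.87 ± 0.64 SE, adjusted p = 0.0255, and -4.64 without unsorted replicate 4 and -2.08 without unsorted replicate 5). Over all 17 mice it ran at 14.1 to 35.5 CPM in the ZRS06 and ZRS07 mice, 107 to 151 CPM in the first and 625 to 669 CPM in the second set of ZRS08. The log2 difference of AND and F5 from OT mice for Tsix in this gate was -4.41 (adjusted p = 0.0296 by edgeR).

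In the CD4+CD8a- gate the sums held 1118, 1850 and 1132 sorted cells and 1040 and 955 unsorted cells, of which 98.4 to 99.0 percent and 93.3 and 89.3 percent were CD5 positive. Of 11065 genes, 40 differed, 0.362 percent, with 5 higher (0.0452 percent) and 35 lower (0.316 percent). Of the 35 lower genes, 8 reached the filter's 1.42 CPM in both groups, that is in at least 1 mouse of each. The other 27 reached it in the unsorted mice only and had to be lower, so the split of the calls is not read as a result. Groups did not overlap for 43.1 percent of genes. The split was 8 higher and 88 lower by library size, where the median over all genes stood at -0.12. Without unsorted replicate 5 there were 109 calls, without unsorted replicate 4 there were 3963, and without sorted replicate 1, 2 or 3 there were 1, 11 or 1, while DESeq2 gave 318.

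Among the 24 lists, calls in this gate fell in 3. Of 12 myeloid and dendritic genes tested, 8 reached the filter's 1.42 CPM in mice of both groups and 2 of these were lower, with summed levels of 125 to 211 CPM in the sorted and 646 and 1615 CPM in the unsorted mice. Tyrobp, an adaptor of myeloid and NK receptors, was at 1.55, 1.59 and 1.94 in sorted against 46.0 and 41.2 CPM in unsorted mice (log2 fold change -4.69 ± 0.23 SE, adjusted p = 0.000465). Siglech, a marker of plasmacytoid dendritic cells, was at 0, 0.106 and 0 in sorted against 10.2 and 13.0 CPM in unsorted mice, and passed the filter in the unsorted mice only, so that it had to differ. Fcer1g, a signalling chain of Fc receptors, was at 3.49, 5.72 and 7.24 in sorted against 28.8 and 23.9 CPM in unsorted mice (log2 fold change -2.28 ± 0.31 SE, adjusted p = 0.0286). All 3 were lower in every sorted mouse. The 5 erythroid genes tested, which passed the filter through the unsorted mice, were at 0 in all 3 sorted mice, and Hbb-bs was at least 7005-fold lower.

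The remaining list was pre-TCR and Notch, in which 7 of 10 tested genes reached the filter in both groups and 1 of these was lower. Ptcra was at 3.105, 2.33 and 1.77 in sorted against 14.3 and 34.0 CPM in unsorted mice (log2 fold change -3.26 ± 0.42 SE, adjusted p = 0.0254, and -2.54 without unsorted replicate 5). Bcl11a, a factor of early precursors that plasmacytoid dendritic cells also express, was at 0.259, 0.106 and 0.353 in sorted against 7.74 and 7.23 CPM in unsorted mice and passed the filter in the unsorted mice only. Both were lower in each sorted mouse. Rag1 was not called over the 5 mice, at 6.99, 2.23 and 4.06 in sorted against 31.6 and 301 CPM in unsorted mice (log2 fold change -5.22 ± 0.88 SE, adjusted p = 0.0679, and -6.09 without unsorted replicate 4), and was called without unsorted replicate 5, whose level was far above the other unsorted mouse (log2 fold change -2.85, adjusted p = 0.0198).

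Lineage and response genes did not pass in this gate. Zbtb7b was at 70.4, 68.8 and 56.4 in sorted against 73.9 and 80.6 CPM in unsorted mice (log2 fold change -0.24 ± 0.20 SE, adjusted p = 0.496). Klf2 was at 585, 527 and 735 in sorted against 451 and 140.3 CPM in unsorted mice (log2 fold change 1.05 ± 0.46 SE, adjusted p = 0.276, and 2.15 without unsorted replicate 4 and 0.45 without unsorted replicate 5). Foxp3 was at 13.5, 15.9 and 18.9 in sorted against 18.2 and 14.1 CPM in unsorted mice (log2 fold change -0.03 ± 0.24 SE, adjusted p = 0.947). The groups overlapped for Foxp3, the sorted mice lay just below the unsorted mice for Zbtb7b, and unsorted replicate 5 was far the lowest mouse for Klf2. The 19 TCR response genes had 0 calls by edgeR and a median of 0.25, and the 17 maturation genes had 0 calls and a median of 0.44, each against 0.01 over all genes. The 3 named genes called higher in this gate were Rnaset2a, Rnaset2b and Phpt1 (2.21, 2.23 and 1.90 on the log2 scale, with 2.85 for Rnaset2b without unsorted replicate 4). The first pair are near-identical copies whose counts are uncertain. Over all cells of the 17 mice, Rnaset2a was at 90.0 to 183 CPM in ZRS06 and ZRS07 and at 20.9 to 27.0 CPM in ZRS08. Phpt1 was at 91.3 to 136 CPM in the former and 21.3 to 39.2 CPM in the latter, so that neither gene overlapped between these sets, in which genotype, sort and experiment cannot be told apart. Rnaset2b ranged from 3.11 to 153 CPM and from 22.5 to 29.2 CPM, which overlapped.

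**Figure D4:**
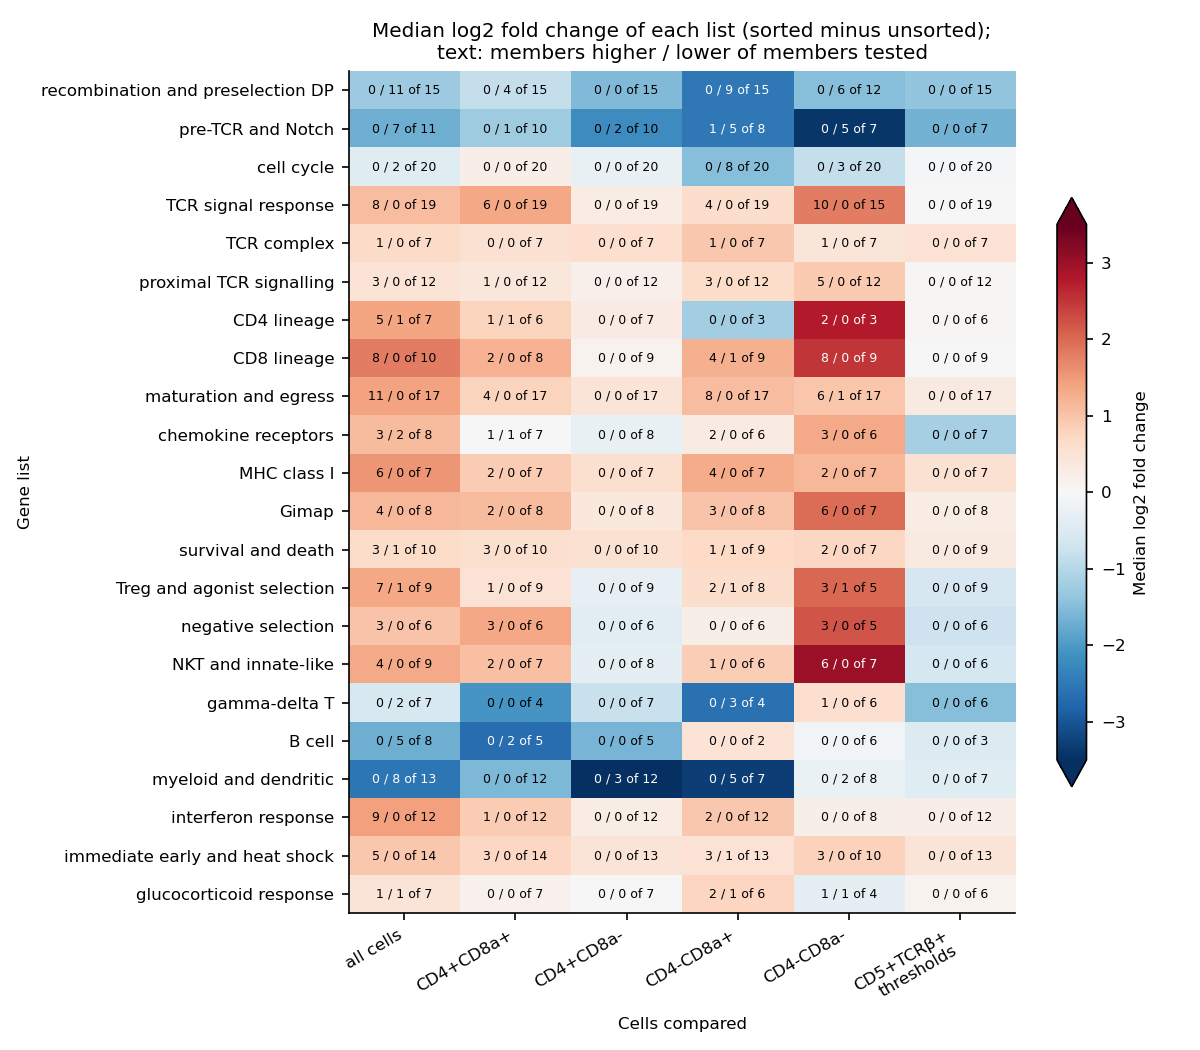
Median log2 fold change, sorted over unsorted, of 22 gene lists in sums over all cells and within 5 antibody gates, with the number of genes called higher and lower of those tested in each cell, genes that passed the filter on low counts in 1 group only included. TCR response genes have a median of 1.07 over all cells, 1.36 in the CD4+CD8a+ gate and 0.25 in the CD4+CD8a- gate.

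In CD4-CD8a+ cells, 7 of the 13 recombination genes that reached the filter's 4.11 CPM in at least 1 mouse of each group were lower after the sort. Of the cell cycle genes 8 of 20 were also lower, and 8 of 17 maturation genes were higher. The sums held 151, 409 and 312 sorted cells and 270 and 351 unsorted cells, and 91.4, 75.3 and 86.5 percent of the former against 63.3 and 52.4 percent of the latter were CD5 positive. Of 9408 genes, 822 differed, 8.74 percent, with 309 higher (3.28 percent) and 513 lower (5.45 percent). Groups did not overlap for 48.7 percent of genes. Of the calls, 29 of the 309 higher genes passed the filter in the sorted mice only and 91 of the 513 lower genes in the unsorted mice only. Library size scaling gave 235 and 917 with the median over all genes at -0.16. There were 1093 calls without unsorted replicate 5, 663 of them among the 822, and 3572 without unsorted replicate 4. Leaving out sorted replicate 1, 2 or 3 gave 7, 8 or 354.

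Of the 15 recombination and preselection genes tested 9 were lower and 0 higher (2 higher without unsorted replicate 5), and 2 of the 9 passed the filter in the unsorted mice only. Cd24a was at 18.7, 18.5 and 18.4 in sorted against 80.1 and 235 CPM in unsorted mice (log2 fold change -3.08 ± 0.42 SE, adjusted p = 0.0126, and -2.12 without unsorted replicate 5). Rag1 was at 1.44, 8.37 and 10.5 in sorted against 62.5 and 343 CPM in unsorted mice (log2 fold change -4.77 ± 0.73 SE, adjusted p = 0.0161, and -5.50 without unsorted replicate 4 and -3.06 without unsorted replicate 5). Ptcra was at 4.30, 4.88 and 5.25 in sorted against 55.8 and 29.9 CPM in unsorted mice (log2 fold change -3.15 ± 0.35 SE, adjusted p = 0.00824). The 3 sorted mice lay close together and below both unsorted mice for Cd24a and Ptcra.

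Cell cycle genes were lower in 8 of 20 with a median of -1.50 and in 11 without unsorted replicate 5. Mki67 was at 34.4, 49.1 and 125 in sorted against 452 and 661 CPM in unsorted mice (log2 fold change -2.99 ± 0.48 SE, adjusted p = 0.0166, and -3.70 without sorted replicate 3). Hist1h1b, a linker histone of replicating cells, was at 12.9, 35.9 and 131 in sorted against 886 and 809.5 CPM in unsorted mice (log2 fold change -3.80 ± 0.70 SE, adjusted p = 0.0227, and -5.05 without sorted replicate 3). Sorted replicate 3 had the highest Mki67 of the sorted mice but still lay below both unsorted mice. Immature CD8 single-positive cells, which divide on the way from the CD4-CD8- to the CD4+CD8+ stage and have not yet rearranged TCRα, are known to share this gate with mature CD8 T cells. Nrp1, a coreceptor for semaphorins and growth factors, was at 0.718, 1.74 and 4.38 in sorted against 49.3 and 60.3 CPM in unsorted mice (log2 fold change -4.46 ± 0.42 SE, adjusted p = 0.00549, and -5.23 without sorted replicate 3). Of the sorted mice only replicate 3 reached the filter's 4.11 CPM, so the test of Nrp1 rested on the unsorted mice, where it was high.

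The CD8 lineage list had 4 of 9 tested higher, 1 lower and 4 not called, with a median of 1.24. Nkg7 was at 606, 579.6 and 535 in sorted against 282 and 110.4 CPM in unsorted mice (log2 fold change 1.54 ± 0.38 SE, adjusted p = 0.0420, and 2.39 without unsorted replicate 4). Itgae, which encodes the CD103 chain of an epithelial integrin, was at 189, 162 and 111 in sorted against 66.1 and 72.5 CPM in unsorted mice (log2 fold change 1.15 ± 0.28 SE, adjusted p = 0.0416). Gzma was the lower member, at 7.17, 40.1 and 26.7 in sorted against 201 and 172 CPM in unsorted mice (log2 fold change -2.86 ± 0.47 SE, adjusted p = 0.0182). From the innate-like list and not the CD8 lineage list, Klrd1, which encodes the receptor chain CD94, was at 86.8, 82.6 and 77.9 in sorted against 21.2 and 16.5 CPM in unsorted mice (log2 fold change 2.11 ± 0.25 SE, adjusted p = 0.00824). Runx3 was not called, at 237, 268 and 251 in sorted against 145 and 200.5 CPM in unsorted mice (log2 fold change 0.55 ± 0.25 SE, adjusted p = 0.179, and 0.80 without unsorted replicate 5 with adjusted p = 0.0191).

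Maturation genes were higher in 8 of 17 with a median of 1.07 (11 of 17 without unsorted replicate 5). Klf2 was at 699.6, 588 and 708 in sorted against 284 and 88.0 CPM in unsorted mice (log2 fold change 1.83 ± 0.45 SE, adjusted p = 0.0412, and 2.93 without unsorted replicate 4 and 1.22 without unsorted replicate 5). Dgka, a diacylglycerol kinase that restrains signalling, was at 250.4, 206 and 207 in sorted against 87.0 and 88.5 CPM in unsorted mice (log2 fold change 1.33 ± 0.24 SE, adjusted p = 0.0210). Trac was at 1098, 823 and 896 in sorted against 386 and 319 CPM in unsorted mice (log2 fold change 1.41 ± 0.27 SE, adjusted p = 0.0244), and MHC class I genes were higher in 4 of 7. The sorted mice were above both unsorted mice for these genes, with unsorted replicate 5 the lowest for Klf2 and Trac. The TCR response list had 4 of 19 higher, of which Tnfrsf9 was at 36.6, 38.0 and 46.9 in sorted against 16.0 and 14.9 CPM in unsorted mice (log2 fold change 1.38 ± 0.25 SE, adjusted p = 0.0213) and Cd69 at 65.3, 74.2 and 67.9 in sorted against 37.5 and 33.6 CPM in unsorted mice (log2 fold change 0.96 ± 0.23 SE, adjusted p = 0.0388).

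Myeloid and dendritic genes were lower in 5 of 7 tested, 1 of which passed the filter in the unsorted mice only, with summed levels of 124 to 262 CPM against 511 and 889 CPM. H2-Aa, an MHC class II chain of antigen-presenting cells, was at 17.9, 1.74 and 0.876 in sorted against 86.0 and 65.1 CPM in unsorted mice (log2 fold change -3.78 ± 0.74 SE, adjusted p = 0.0247, and -5.73 without sorted replicate 1, -3.17 without sorted replicate 2 and -3.15 without sorted replicate 3). Of the sorted mice only replicate 1 reached the filter's 4.11 CPM, so the test of H2-Aa rested on the unsorted mice, where it was high. Of 4 γδ T genes tested, 2 reached the filter in both groups and 1 of these was lower, with summed levels of 18.8 to 57.4 CPM and 128 and 239 CPM. Trdc, the TCRδ constant region, was at 43.8, 45.0 and 15.3 in sorted against 101 and 106 CPM in unsorted mice (log2 fold change -1.59 ± 0.39 SE, adjusted p = 0.0413). The sorted mice lay below both unsorted mice in both sums. The 2 B cell genes tested had 0 calls by edgeR and summed levels of 222 to 301 against 228 and 267 CPM, and the 2 stromal genes tested also had 0 calls. The part of these cells in the gate's other differences was not tested.

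The CD4-CD8a- gate held 22, 44 and 28 sorted cells and 228 and 291 unsorted cells, which limits every value from it. Of these, 81.8, 75.0 and 85.7 percent against 11.8 and 12.4 percent were CD5 positive. Of 5573 genes, 459 differed, 8.24 percent, with 249 higher (4.47 percent) and 210 lower (3.77 percent). The mice did not overlap for 40.3 percent of genes. Between 250 and 297 were called when any 1 sorted mouse was left out. The counts were 615 without unsorted replicate 5 and 1701 without unsorted replicate 4. The small sums put the filter on low counts at 26.5 CPM, which 448 of the genes reached in sorted mice only and 199 in unsorted mice only. Such genes entered the test through the group in which they were high, which fixed the direction of their calls. Of the 4926 genes that reached the filter in both groups, that is in at least 1 mouse of each, 130 were called higher and 134 lower. Such a gene could still enter mainly through the group in which it was high, so these counts are not free of the filter. The rest of the 459 calls are not read as a result. List counts in this gate are likewise given over the genes that reached the filter in both groups.

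In the pre-TCR and Notch list, 4 of the 5 genes that reached the filter in both groups were lower. Il2ra was at 8.13, 39.5 and 6.87 in sorted against 237 and 449 CPM in unsorted mice (log2 fold change -4.12 ± 0.53 SE, adjusted p = 0.000409, and -5.46 without sorted replicate 2 and -3.53 without unsorted replicate 5). Of the sorted mice only replicate 2 reached the filter's 26.5 CPM, so the test of Il2ra rested on the unsorted mice, where it was high. Notch1 was at 24.4, 39.5 and 30.9 in sorted against 270.1 and 420.3 CPM in unsorted mice (log2 fold change -3.42 ± 0.38 SE, adjusted p = 0.000173). Sorted replicate 2 had the highest Il2ra of the sorted mice. Recombination genes were lower in 6 of 12, including Dntt at 118, 116 and 172 in sorted against 691 and 672 CPM in unsorted mice (log2 fold change -2.33 ± 0.32 SE, adjusted p = 0.000542).

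In the innate-like list 2 genes reached the filter in both groups and 1 of these was higher, while 5 passed in the sorted mice only. Over all 7 genes tested, with those 5 included, its summed level was 606 to 1711 CPM in the sorted and 146 and 242 CPM in the unsorted mice. The filter therefore bears on this difference. Il2rb, Klrb1c and Cd160 are among those 5 and are given as values. Il2rb, the interleukin 2 and 15 receptor chain, was at 122, 127 and 117 in sorted against 10.4 and 19.4 CPM in unsorted mice. Klrb1c, which encodes NK1.1, was at 32.5, 96.0 and 24.0 in sorted against 3.22 and 9.39 CPM in unsorted mice. Cd160 was at 109.8, 136 and 206 in sorted against 23.3 and 12.3 CPM in unsorted mice. Sorted replicate 2 was the highest for Klrb1c, and all 3 sorted mice exceeded the unsorted mice for each gene, in the direction set by the filter.

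The CD8 lineage list, whose members include effector genes that innate-like cells also express, was higher in 3 of the 4 genes that reached the filter in both groups, and 5 passed in the sorted mice only. One of those was Xcl1, a chemokine for dendritic cells, at 65.0, 243 and 278 in sorted against 5.36 and 25.8 CPM in unsorted mice. TCR response genes were higher in 5 of 9 that reached the filter in both groups, and 6 passed in the sorted mice only. Among the latter Tnfrsf9 was at 106, 172 and 99.6 in sorted against 6.97 and 9.39 CPM in unsorted mice and Nr4a1 at 97.6, 98.8 and 48.1 in sorted against 6.70 and 13.5 CPM in unsorted mice. Pdcd1 was at 195, 313 and 148 in sorted against 32.2 and 19.4 CPM in unsorted mice (log2 fold change 3.07 ± 0.42 SE, adjusted p = 0.000542). Of the unsorted mice only replicate 4 reached the filter's 26.5 CPM for Pdcd1, so the test of Pdcd1 rested on the sorted mice, where it was high. Trac was at 549, 579 and 515 in sorted against 54.9 and 113 CPM in unsorted mice (log2 fold change 2.71 ± 0.38 SE, adjusted p = 0.000714, and 3.36 without unsorted replicate 5). No sorted mouse was below an unsorted mouse in any of these, although the filter set the direction for Xcl1, Tnfrsf9 and Nr4a1 and Pdcd1 entered mainly through the sorted mice. The neutrophil genes S100a8 and S100a9 and the globin Hbb-bs had 0 UMIs in the sorted mice of this gate and were at least 619-, 823- and 556-fold lower. They passed the filter in the unsorted mice only, so that they had to differ. Over all cells, sorted replicate 1 held S100a8 at 3.74 and S100a9 at 7.48 CPM, and sorted replicates 2 and 3 held at most 0.08 CPM of either.

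Cells above both antibody thresholds, 844, 1455 and 1142 in the sorted and 1272 and 1189 in the unsorted mice, were also compared. The thresholds came from the unsorted mice, and 28.1, 32.0 and 47.2 percent of the sorted cells passed both. In the CD4+CD8a- gate the median TCRβ level was 108.6, 114.5 and 156.3 per 10000 in sorted and 209.4 and 196.2 in unsorted mice. The same thresholds therefore need not take like cells from both groups, and the counts here are not read as what remains after matching. Of 10518 genes 0 were called by edgeR, 0 percent, with 1860 genes at an unadjusted p under 0.05 and 142 calls by DESeq2. Levels did not overlap between the groups for 41.9 percent of genes. Without unsorted replicate 5 the count was 43, without unsorted replicate 4 it was 3945, and it stayed at 0 without any 1 sorted mouse. None of the 24 lists had a call. Egr2 was at 19.5, 18.0 and 13.2 in sorted against 18.7 and 15.4 CPM in unsorted mice (log2 fold change -0.03 ± 0.25 SE, adjusted p = 0.957), and Zbtb7b at 61.5, 56.7 and 45.6 in sorted against 61.6 and 71.5 CPM in unsorted mice (log2 fold change -0.28 ± 0.22 SE, adjusted p = 0.467). Pdcd1 was at 8.34, 11.8 and 12.2 in sorted against 13.4 and 10.7 CPM in unsorted mice (log2 fold change -0.18 ± 0.27 SE, adjusted p = 0.703). The mice of the groups overlapped for Egr2 and Pdcd1 and came within 1 CPM of each other for Zbtb7b.

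The TCR response list in these gated cells had a median of -0.03 and the maturation list 0.32, beside 1.07 and 1.40 over all cells from the same mice. Rag1 kept a large but uncalled difference, at 3.90, 2.98 and 2.78 in sorted against 39.0 and 329 CPM in unsorted mice (log2 fold change -5.82 ± 0.80 SE, adjusted p = 0.0883, and -6.65 without unsorted replicate 4), and was called without unsorted replicate 5 (log2 fold change -3.60, adjusted p = 4.58e-05). Bcl2l11 was at 36.5, 45.3 and 39.4 in sorted against 79.8 and 135 CPM in unsorted mice (log2 fold change -1.40 ± 0.26 SE, adjusted p = 0.221), lower in every sorted mouse, and was called without unsorted replicate 5 (log2 fold change -0.98, adjusted p = 0.0391). A p that misses the threshold here does not show that the gated cells were alike, since the recombination list still had a median of -1.39. RNA that T cells do not make was also read in this gate, where the summed level of 3 erythroid genes was 642 and 20.8 CPM in the unsorted mice and 0 in the sorted mice. These 3 genes passed the filter in the unsorted mice only and were not called. The part of such background RNA in the values of Rag1 was not tested.

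The whole antibody panel, with the CD5 and TCRβ tags that the sort had set, was compared in sums of antibody UMIs per mouse, with levels in CPM of the panel UMIs. Over all cells 61 of 111 antibodies differed, 55.0 percent, with 30 higher (27.0 percent) and 31 lower (27.9 percent). Groups did not overlap for 73.9 percent of antibodies. The count was 40 without unsorted replicate 5, 38 without unsorted replicate 4 and 84, 62 and 59 without sorted replicates 1, 2 and 3. Some tags also differed widely between sets of the other genotypes. The CD49f tag was at 8543, 7948 and 5621 in sorted against 8.70 and 6.56 CPM in unsorted mice, and in the other genotypes it ranged from 4864 to 8437 CPM in the 8 AND, F5 and MHC-deficient mice and from 6.66 to 8.50 CPM in the 4 OT mice. The CD90.2 tag, which marks T cells, was at 25410, 32950 and 24757 in sorted against 151782 and 122855 CPM in unsorted mice, while the same other mice spanned 24059 to 57082 and 102315 to 168007 CPM. The MHC-deficient mice among them were sorted for CD5 and TCRβ and the OT mice were not, so genotype, sort and experiment cannot be told apart in these other mice. In addition, sorted replicate 1 had the lowest CD45 level of the 5 mice.

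Over all cells the CD69 and CD127 proteins were among the 30 antibodies called higher. CD69, an activation marker, was at 4649, 6517 and 5325 in sorted against 1897 and 1910 CPM in unsorted mice (log2 fold change 1.53 ± 0.24 SE, adjusted p = 0.00301). CD127, the interleukin 7 receptor chain that returns after positive selection, was at 1632, 1010 and 1044 in sorted against 422 and 389.9 CPM in unsorted mice (log2 fold change 1.60 ± 0.27 SE, adjusted p = 0.00351), and at 403 to 3184 CPM in the 8 AND, F5 and MHC-deficient mice and 365 to 479 CPM in the 4 OT mice. The sorted mice lay above both unsorted mice for both proteins.

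The CD25, CD117 and CD24 proteins were among the 31 called lower. CD25 was at 474, 490 and 573 in sorted against 1678 and 2737 CPM in unsorted mice (log2 fold change -2.11 ± 0.25 SE, adjusted p = 0.00116). CD117, the stem cell factor receptor of early precursors, was at 1105, 838 and 858 in sorted against 3374 and 3900 CPM in unsorted mice (log2 fold change -1.96 ± 0.22 SE, adjusted p = 0.000962). It ranged from 669 to 2970 CPM in the 8 AND, F5 and MHC-deficient mice and from 2765 to 4850 CPM in the 4 OT mice. CD24, which is lost on maturation, was at 13767, 13642 and 10415 in sorted against 24937 and 18357 CPM in unsorted mice (log2 fold change -0.78 ± 0.23 SE, adjusted p = 0.0251), a call lost without unsorted replicate 5 (log2 fold change -0.98, adjusted p = 0.0569), and also without unsorted replicate 4 or sorted replicate 3 (adjusted p = 0.218 and 0.0557 by edgeR). Every sorted mouse was below the unsorted mice for these 3 proteins, as it was for Il2ra RNA. The CD117 and CD25 tags were also lower within the CD4+CD8a- gate, where CD117 was at 729.9, 682 and 581 in sorted against 2766 and 2388 CPM in unsorted mice (log2 fold change -1.96 ± 0.23 SE, adjusted p = 0.000735). CD25 in this gate was at 584, 647 and 830.3 in sorted against 1679 and 3324 CPM in unsorted mice (log2 fold change -1.86 ± 0.33 SE, adjusted p = 0.00366).

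Within the CD4+CD8a+ gate 48 of 111 antibodies differed, 43.2 percent, with 20 higher (18.0 percent) and 28 lower (25.2 percent), or 12 and 31 by library size. Groups did not overlap for 68.5 percent of antibodies. CD69 was at 2834, 4599 and 4183 in sorted against 1208 and 1425 CPM in unsorted mice (log2 fold change 1.56 ± 0.28 SE, adjusted p = 0.0106), a call lost without unsorted replicate 5 (log2 fold change 1.53, adjusted p = 0.0861) and without unsorted replicate 4 (1.36, adjusted p = 0.102). CD5 was at 158183, 190096 and 147964 in sorted against 41158 and 52792 CPM in unsorted mice (log2 fold change 1.82 ± 0.21 SE, adjusted p = 0.00292) and was set by the sort. CD24 was at 18068, 20360 and 20177 in sorted against 23130 and 19735 CPM in unsorted mice (log2 fold change -0.13 ± 0.18 SE, adjusted p = 0.555), with values that did not differ beyond their spread. CD127 was at 1008, 453 and 479 in sorted against 296 and 310.5 CPM in unsorted mice (log2 fold change 1.09 ± 0.40 SE, adjusted p = 0.0723) and did not pass, although it was called without sorted replicate 1, the highest mouse (log2 fold change 0.62, adjusted p = 0.000636), and without sorted replicate 2 (1.17, adjusted p = 0.0287). The count was 14 without unsorted replicate 5, 10 without unsorted replicate 4 and 80, 42 and 28 without sorted replicates 1, 2 and 3.

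Within the CD4+CD8a- gate 62 antibodies differed, 55.9 percent, with 27 higher (24.3 percent) and 35 lower (31.5 percent). Groups did not overlap for 78.4 percent of antibodies. The count was 29 without unsorted replicate 4 and 29 without unsorted replicate 5. CD69 was at 6586, 9610 and 7532 in sorted against 6460 and 5768 CPM in unsorted mice (log2 fold change 0.37 ± 0.26 SE, adjusted p = 0.242), and was not called. CD24 was at 7083, 8568 and 5413 in sorted against 14220 and 9426 CPM in unsorted mice (log2 fold change -0.75 ± 0.29 SE, adjusted p = 0.0583), not called over the 5 mice but called without sorted replicate 1 (-0.69, adjusted p = 0.0254) or 2 (-0.92, adjusted p = 0.0333). TCRβ was at 10393, 14477 and 16670 in sorted against 23508 and 20457 CPM in unsorted mice (log2 fold change -0.67 ± 0.26 SE, adjusted p = 0.0573), below the unsorted mice in every sorted mouse. In the CD4+CD8a+ gate it was at 3039, 4488 and 4689 in sorted against 2029 and 2699 CPM in unsorted mice (log2 fold change 0.78 ± 0.28 SE, adjusted p = 0.0719), above them and called without sorted replicate 1 (log2 fold change 0.96, adjusted p = 0.00370). By the threshold, 57.5, 62.3 and 78.4 percent of sorted and 81.4 and 77.8 percent of unsorted CD4+CD8a- cells were TCRβ positive.

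Within the CD4-CD8a+ gate 58 antibodies differed, 52.3 percent, with 29 higher (26.1 percent) and 29 lower (26.1 percent). Groups did not overlap for 76.6 percent of antibodies, and 39 were called without unsorted replicate 5. CD24 was at 5138, 4296 and 3979 in sorted against 20862 and 18379 CPM in unsorted mice (log2 fold change -2.13 ± 0.20 SE, adjusted p = 0.000131). CD25 was at 180.1, 203 and 184 in sorted against 898 and 1862 CPM in unsorted mice (log2 fold change -2.87 ± 0.30 SE, adjusted p = 0.000223, and -3.46 without unsorted replicate 4). CD304, the protein of Nrp1, was at 364, 399 and 462 in sorted against 2946 and 2491 CPM in unsorted mice (log2 fold change -2.74 ± 0.20 SE, adjusted p = 4.27e-05). All 3 proteins were lower in each sorted mouse, and CD24 and CD304 had the direction of their RNA in the same gate. For CD304 that RNA, Nrp1, had been tested through the unsorted mice, where it was high. CD127 was at 1965, 1077 and 1071 in sorted against 594 and 611 CPM in unsorted mice (log2 fold change 1.19 ± 0.31 SE, adjusted p = 0.0128), higher in the sorted mice, although it lost its call without unsorted replicate 5 (log2 fold change 1.07, adjusted p = 0.0763) or 4 (0.99, adjusted p = 0.0875).

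**Figure D5:**
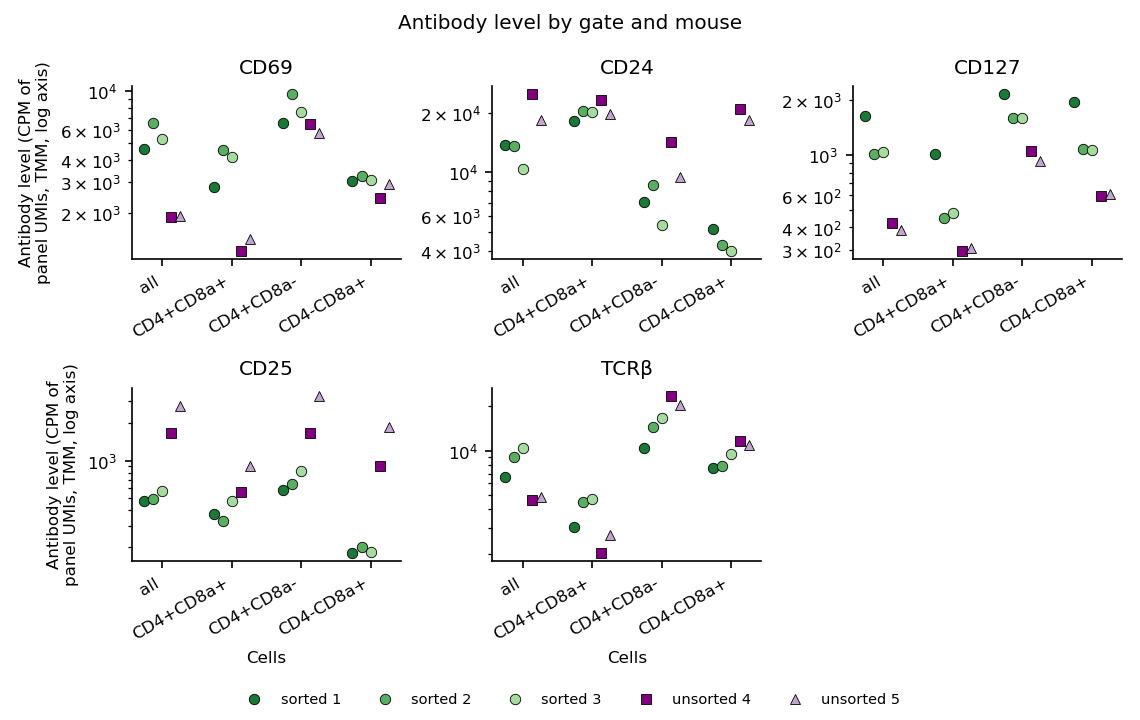
Antibody level in CPM of panel UMIs, on a log axis, for 5 proteins in all cells and in 3 antibody gates of 5 wild-type mice, with 1 point per mouse. In the CD4-CD8a+ gate CD24 lies at 3979 to 5138 CPM in the sorted and at 18379 and 20862 CPM in the unsorted mice.

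Clusters built on RNA gave 27 groups, named as X-like from fixed markers where these allowed. Of the clusters 7 were over 95 percent unsorted replicate 5 and held 92.3 percent of its cells with 11 cells of the other mice, so shares of clusters are listed here as values with no test. The 3 clusters of the signaled DP-like class had 2, 2 and 5 fixed markers among their 10 leading genes, and the last was almost entirely unsorted replicate 5. The class held 28.4, 29.8 and 17.5 percent of the sorted and 11.5 and 12.2 percent of the unsorted mice, and 84.9 percent of its cells lay in the CD4+CD8a+ gate. The mature SP-like class held 18.2, 21.0 and 28.0 percent of sorted and 4.19 and 11.7 percent of unsorted cells, with 83.0 percent of it in the CD4+CD8a- gate. The negative selection-like class held 4.97, 6.31 and 5.25 percent against 1.30 and 0.0757 percent. Of its cells 53.9 percent were in the CD4+CD8a+ gate, 38.4 percent in the CD4+CD8a- gate and 98.8 percent above the CD5 threshold, so it spanned the double-positive and single-positive stages by surface protein. The Treg-like class held 1.07, 1.85 and 2.81 percent against 0.469 and 0.0540 percent, with 92.6 percent in the CD4+CD8a- gate. A total of 11927 cells in 7 clusters could not be named from the markers.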

How the data were processed

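Thymocytes of 5 wild-type mice, 3 sorted and 2 unsorted, were profiled by CITE-seq with 3' libraries and TotalSeq-A antibodies. The authors deposited raw UMI counts per gene, antibody and cell barcode for each lane, made with Cell Ranger 3.1.0 against mm10 (GRCm38). Here, cells with at most 15 percent mt- UMIs and at least 200 of 28692 genes were kept, and cells with the most simulated doublets among their neighbours were removed at 0.8 percent per 1000 cells of a lane. CD4, CD8a, CD5 and TCRβ gates were set on log2(antibody UMIs per 10000 panel UMIs + 1).

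UMIs were summed per mouse and gate, with the 2 lanes of each unsorted mouse added. Sums were fitted with edgeR 4.0.16 (filterByExpr, TMM, quasi-likelihood test, R 4.3.3), with sorted against unsorted as the single term and Benjamini-Hochberg adjustment over all genes or antibodies tested. The procedure was run on counts simulated from means pooled over the mice, with a fixed dispersion for all genes. That simulation held no outlying mouse, so it does not measure error rates for these data. DESeq2 1.42.0, library size scaling, no filter, other thresholds, other cells and each mouse left out were alternatives. RNA clusters used 2000 genes, 30 components and Leiden clustering (leidenalg 0.10.2) at resolution 1. Shares were compared with an exact permutation test over mice, written in Python 3.11.15. Limits for genes with a count of 0 use 3 counts and cover counting error only.

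Genes were named by rule, namely in each list up to 6 called genes of largest absolute change and up to 3 uncalled ones in list order, and in each comparison the 6 called genes of largest change in each direction with a mean of at least 20 CPM and no overlap of groups. Antibodies named were drawn from the 6 of largest change in each direction and a set of fixed lineage markers. The comparison, the gene lists and the gates were chosen with earlier results of these data known. Sorted and unsorted mice shared no experiment, so no term for the experiment could be fitted. Some genes and antibodies that met the rule are not reported here. The totalVI model of the study was not run.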

Additional observations from a re-analysis of the deposited data

Results flagged for a closer look

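Antibody tags outside the panel of 111 were used in no comparison. In the lane of sorted replicate 1 they were 3 anti-CD45 hashtags, which summed to 231224 UMIs. This lane was counted as 1 mouse on its label alone. Tags outside the panel summed to 0 UMIs in sorted replicates 2 and 3 and, over the other antibodies listed for ZRS08, to 2517 to 5075 UMIs in the unsorted lanes. The AND and F5 lanes of ZRS06, the experiment of sorted replicate 1, held 164915 and 131276 UMIs outside the panel. The CD45 panel antibody was at 54168 CPM in the lane of sorted replicate 1 and at 178930 to 252735 CPM in the other 4 mice.

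The TCRβ antibody moved in opposite directions between the sorted and the unsorted mice in 2 gates, with every sorted mouse above both unsorted mice in one gate and below them in the other. Its log2 fold change was 0.78 in the CD4+CD8a+ gate and -0.67 in the CD4+CD8a- gate, and neither passed edgeR's test after Benjamini-Hochberg adjustment (adjusted p = 0.0719 and adjusted p = 0.0573). The first passed without sorted replicate 1 (adjusted p = 0.00370). The difference between the gates was not tested. Binding of fluorescent oligonucleotides to the CD5 and TCRβ tags took place in the sorted mice only, and its part in these values was not tested.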

How the results depend on the processing

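The direction of no called gene or antibody among the 146 values named in the text turned under any alternative run, but 8 uncalled values changed sign while staying uncalled (Bcl2l11, Gata3, Satb1 and Trbc1 over all cells, Bcl2l11 in the CD4+CD8a+ gate, Foxp3 in the CD4+CD8a- gate, Egr2 and Pdcd1 in the CD5 and TCRβ gate). Calls depended on which mouse was left out. Without sorted replicate 1, 2 or 3, 54, 80 and 66 of the 146 values lost their call, and without unsorted replicate 4 or 5, 3 and 6 did. The numbers of genes called ranged from 0 to 5903 over all cells when each mouse in turn was left out, from 3 to 4564 in the CD4+CD8a+ gate, from 1 to 3963 in the CD4+CD8a- gate, from 7 to 3572 in the CD4-CD8a+ gate, from 250 to 1701 in the CD4-CD8a- gate and from 0 to 3945 in the CD5 and TCRβ gate. Antibody counts ranged from 38 to 84 over all cells, from 10 to 80 in the CD4+CD8a+ gate, from 29 to 81 in the CD4+CD8a- gate and from 39 to 72 in the CD4-CD8a+ gate. Where an arm was left with 1 mouse, that mouse was assumed to vary like the others.

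Over all cells, 2862 genes were called by DESeq2, 3231 without a filter on low counts and 3009 in a fit of all 17 mice. In the CD4+CD8a+ gate DESeq2 called 1164 genes and the unfiltered fit 1752. In the CD4+CD8a- gate the count was 318 by DESeq2, 1022 without a filter, 96 by library size, 7 with lane 1 of the unsorted mice only, and 78, 4 and 91 with antibody thresholds lowered, raised or set within each mouse. The CD4-CD8a+ gate gave 1816 genes without a filter, and 1237 and 450 with lane 1 or lane 2 alone. In the CD4-CD8a- gate the count was 302 with lane 1 alone and 150 with lowered thresholds. The CD5 and TCRβ gate gave 142 genes by DESeq2, 647 without a filter and 20 with doublets kept.

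Alternatives chosen after seeing the data were a term for the second set of ZRS08 lanes over all 17 mice, which gave 3761 genes over all cells and 1909, 796, 1604, 1181 and 548 in the CD4+CD8a+, CD4+CD8a-, CD4-CD8a+, CD4-CD8a- and CD5 and TCRβ gates, and all sorted cells against unsorted cells of the CD5 and TCRβ gate, which gave 2. The cause of these shifts was not tested.

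For the RNA classes, which are given without a test, the difference in mean share between sorted and unsorted mice was 14.4 points for the mature SP-like class and moved to 23.8 and 3.48 at Leiden resolutions 0.5 and 2. At resolution 2 it moved from 8.62 to 13.1 for the CD8 SP-like, from 1.65 to 6.04 for the Treg-like, from 4.82 to 3.34 for the negative selection-like and from 13.4 to 4.21 points for the signaled DP-like class, and with doublets kept it was 2.52 and 2.03 points for the last pair. Shares of the CD4 and CD8a gates moved by less than 1 SD under the alternatives run.

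No paired analysis was possible because the sorted mice carry replicate numbers 1 to 3 and the unsorted mice 4 and 5, with none in common. The CD4-CD8a- gate held 22 to 44 sorted cells per mouse, which limits the precision of its values, and the sort is confounded with site and experiment in every comparison.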
